A study of Mus musculus with 12 samples.

Results

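The adipogenic regulators and lipid storage genes described here are 9 genes, namely the transcription factors Pparg, Cebpa, Cebpb, Cebpd and Zfp423 and the lipid handling genes Lpl, Fabp4, Fabp5 and Plin2. They were picked by name, as the rows of the count table whose mouse Ensembl identifier carries one of these symbols. All 9 were found among the 55487 genes of the table, and all 9 passed the filter on low counts that left 11314 protein-coding genes for testing. RNA was sequenced from primary mesenchymal stromal cells (MSCs) of the bone marrow of WT C57BL/6 mice, in 3 groups of 4 samples. Control MSCs were left untreated. A1-treated MSCs received 50 μM A1 for 6 h, and A1 + OVA-treated MSCs received 50 μM A1 with 1 mg/ml ovalbumin (OVA), a protein of egg white used as a model antigen, for 6 h. A1 is a variant of Accum, in which the bile acid cholic acid is linked to a peptide with the nuclear localization signal of hnRNPA1.

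All groups grew in the same medium with fetal bovine serum, and the labels name no adipogenic medium. The treatment label of the A1 + OVA samples ends in a fragment that names insulin without an amount, and what it stands for is not given in the sources used here. No group received OVA alone, so that an effect of OVA without A1 cannot be told apart. The study's methods name no vehicle, change of medium or matched 6 h for the control MSCs of the RNA-seq. Effects of these cannot be told apart from those of A1. The study's methods state that the marrow came from the femurs of female mice aged 6 to 8 weeks and that the MSCs were expanded over several passages and frozen before use. Nothing states whether the 4 samples of a group came from separate animals or cultures, so that the p-values measure the spread between these samples, which may be technical.

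Adipogenesis, the formation of fat cells from stromal precursors, runs as a cascade of transcription factors. Cebpb and Cebpd act early after induction and switch on Pparg and Cebpa, which then keep each other expressed and turn on the genes of lipid uptake and storage, while Zfp423 marks committed preadipocytes and acts upstream of Pparg. Marrow MSCs are precursors of adipocytes and osteoblasts, and they express part of this program before they take up fat.

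The samples held 13702348 to 16881995 counts. The summed level of 9 MSC markers lay between 4098 and 4704 CPM (counts scaled to a normalized library of fixed size, 1e+06 counts) in every sample, most of it from Col1a1, and Thy1, which encodes CD90, had no more than 17 counts. Within this list Cd44 rose with A1 (log2 fold change 1.39), and Pdgfra (-0.99), Vcam1 (-0.95) and Ly6a (-0.59) fell, all with an edgeR adjusted p under 0.05. Of 8 markers of mature adipocytes, Lep, Cidea and Ucp1 had 0 counts in every sample and Retn and Cfd no more than 3, and the summed level lay between 2.95 and 5.01 CPM in control, 1.45 and 1.95 CPM in A1-treated and 1.32 and 2.32 CPM in A1 + OVA-treated MSCs. Macrophage markers summed to between 10.9 and 11.9 CPM in control, 15.5 and 17.9 CPM in A1-treated and 12.9 and 15.5 CPM in A1 + OVA-treated MSCs, with Tyrobp at 0. Only 3 of these 10 markers were tested, and Itgam and Adgre1 had at most 3 counts. Cd14 and Mrc1 were higher with A1 and Cd14 alone with A1 + OVA (edgeR adjusted p under 0.05), and the remaining tested marker did not pass. The endothelial markers stayed under 1 CPM in sum. Osteoblast markers summed to between 1258 and 1351 CPM in control, 3144 and 3475 CPM in A1-treated and 2088 and 2502 CPM in A1 + OVA-treated MSCs, most of it from Spp1, while the defining markers Sp7, Bglap and Ibsp had at most 3 counts. The tested osteoblast markers were split, with Spp1 and Dmp1 higher and Runx2 and Alpl lower in both treatments (edgeR adjusted p under 0.05). The part of these shifts in the results that follow was not tested, and in RNA from bulk samples fewer cells of a type and less RNA per cell cannot be told apart.

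Per kilobase of the longest coding transcript, control MSCs expressed the 9 genes in the order Lpl (447 ± 25.5 CPM per kb, SD, n = 4), Plin2 (86.2 ± 3.19), Fabp4 (70.5 ± 3.91), Pparg (58.8 ± 2.01), Fabp5 (46.3 ± 2.82), Cebpa (31.9 ± 0.68), Cebpb (16.0 ± 2.50), Zfp423 (2.79 ± 0.163) and Cebpd (1.79 ± 0.358). The samples of neighbouring genes in this order did not overlap. With A1, Fabp5 (59.5 ± 3.29 CPM per kb) and Pparg (58.5 ± 3.67) overlapped, as did Cebpb (16.1 ± 2.24) and Cebpa (15.9 ± 1.91), and Zfp423 (0.880 ± 0.0557) came last, below Cebpd (1.76 ± 0.151). The places of Fabp4 and Fabp5 depend on the gene length used, since with all annotated exons joined Fabp4 came to 14.1 and Fabp5 to 12.8 CPM per kb in control MSCs, below Cebpb.

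**Figure D1:**
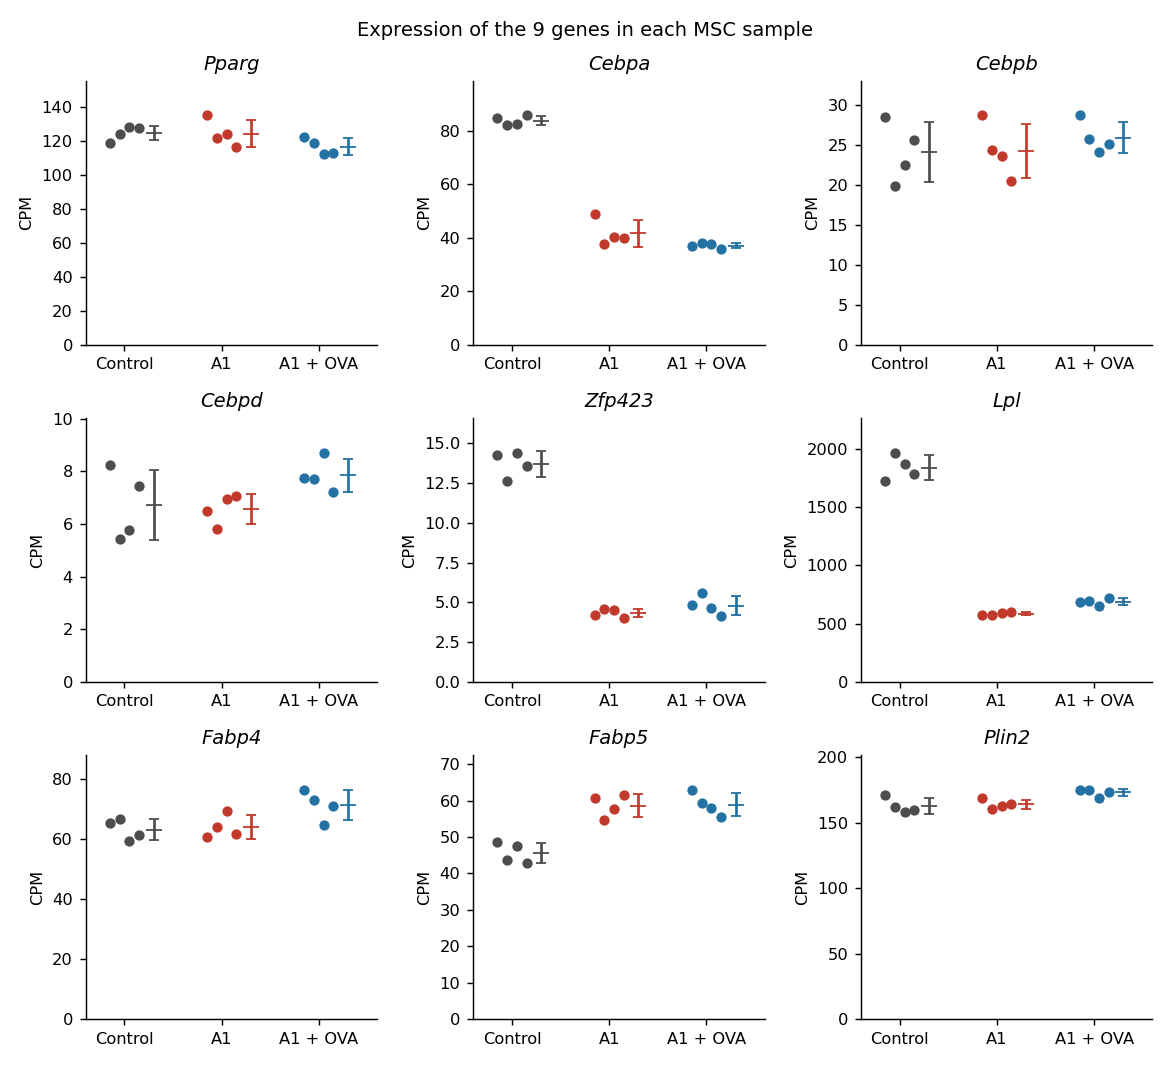
Expression in CPM of the 9 genes in each of the 12 samples, 1 panel per gene with its own axis from 0. Points are the 4 samples of a group, and the bars beside them give the mean and SD. Cebpa, Zfp423 and Lpl sit lower in all 8 treated samples than in the 4 control samples, Fabp5 sits higher in all 8, and the groups overlap for Pparg, Cebpb, Fabp4 and, against control, for Cebpd and Plin2.

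A1 alone was compared with control to find which genes of this program differed after 6 h of A1. Cebpa, Zfp423 and Lpl fell and Fabp5 rose, while Pparg, Cebpb, Cebpd, Fabp4 and Plin2 did not pass the test. These are 4 of 9 genes with an adjusted p under 0.05 in edgeR's quasi-likelihood test, beside 62.7% of all tested genes. In the upward direction it was 1 of 9 beside 31.7% of all tested genes, and downward 3 of 9 beside 31.1%. With a log2 fold change of at least 0.5 in size as well, 3 of 9 remained, all lower, beside 11.6% of all tested genes that were lower by this rule, 9.41% that were higher and 21% in either direction. The median log2 fold change of the 9 genes was -0.0051 and that of all tested genes -0.0017. The groups did not overlap for 4 of the 9 genes, beside 54.4% of all tested genes.

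A1 + OVA was compared with the same control samples, so that the 2 comparisons are not independent. Cebpa, Zfp423 and Lpl were lower and Fabp5 higher again, and Fabp4 and Plin2 passed the test with small increases. That made 6 of 9 genes with an adjusted p under 0.05, 3 higher and 3 lower, beside 57.6% of all tested genes, of which 29.7% were higher and 27.9% lower. Only the 3 lower genes had a log2 fold change of at least 0.5 in size, beside 17.7% of all tested genes in either direction, 8.92% upward and 8.79% downward. The median log2 fold change of the 9 genes was 0.09 and that of all tested genes 0.0036, and the groups did not overlap for 4 of the 9, beside 49.4%. Between A1 + OVA and A1, Lpl alone passed the test, 1 of 9 beside 12.9% of all tested genes (6.05% higher and 6.81% lower), and 0 of 9 reached a log2 fold change of 0.5 in size, beside 1.2% of all tested genes (0.769% higher and 0.433% lower). This comparison had a median log2 fold change of 0.09 over the 9 genes and 0.0057 over all tested genes. For this comparison the groups did not overlap for Lpl, Cebpd and Plin2, beside 18.1% of all tested genes.

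**Figure D2:**
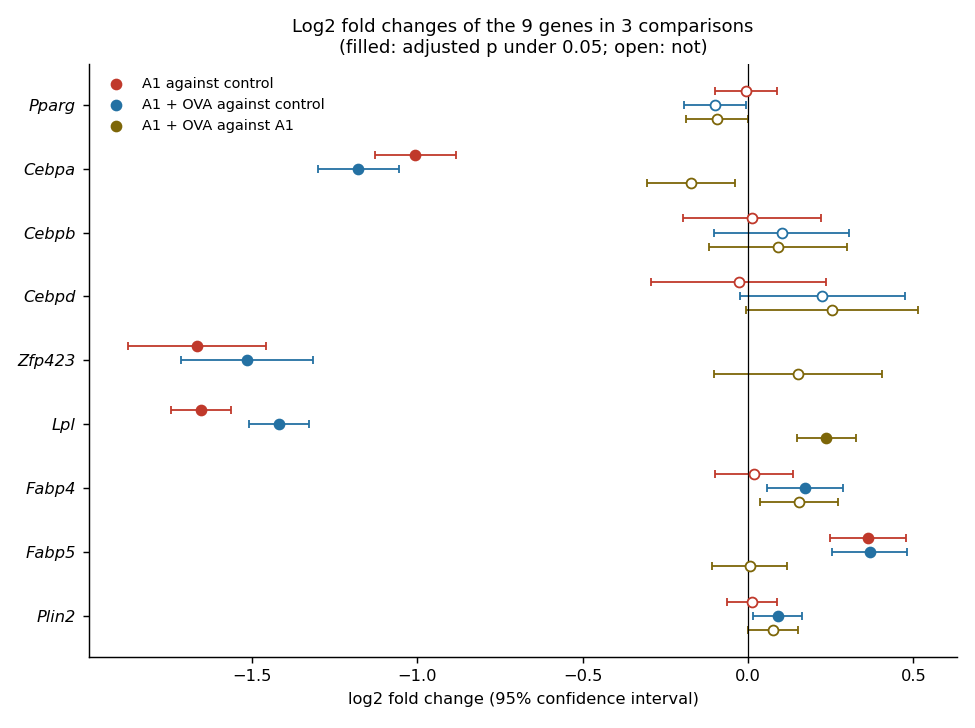
Log2 fold changes of the 9 genes in the 3 comparisons on the horizontal axis, with 95% confidence intervals from edgeR's quasi-likelihood fit. Filled points have an adjusted p under 0.05. Cebpa, Zfp423 and Lpl lie between -1.67 and -1.01 in both comparisons with control, the other genes lie between -0.10 and 0.37, and against A1 only Lpl (0.24) is filled.

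Pparg (ENSMUSG00000000440, chr6:115360951-115490399 on the plus strand of GRCm38) encodes PPARγ, the nuclear receptor without which adipocytes do not form. It measured 119, 124, 129 and 128 CPM in the control samples, 135, 122, 124 and 117 CPM with A1 and 123, 119, 112 and 113 CPM with A1 + OVA. The groups overlapped in all comparisons. The log2 fold change with A1 was -0.0051 (95% confidence interval -0.10 to 0.09, edgeR adjusted p = 0.93), an interval that stays within 0.10 of no change. With A1 + OVA it was -0.10 (-0.19 to -0.0055, edgeR adjusted p = 0.0652). The second value passed the threshold under 3 of the 8 other analyses, with edgeR adjusted p-values from 0.0234 to 0.0486. It also passed when control replicate 1, A1 replicate 1, 3 or 4 or A1 + OVA replicate 1 was left out, with edgeR adjusted p-values from 0.0275 to 0.0475 and log2 fold changes from -0.12 to -0.11. Gene counts do not separate the transcripts that start at the different promoters of Pparg.

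Cebpa (ENSMUSG00000034957, chr7:35119293-35121928, plus strand) encodes C/EBPα, the factor that holds the adipocyte program in place together with PPARγ. It measured 85.0, 82.1, 82.6 and 85.8 CPM in control MSCs. With A1 the samples measured 49.0, 37.6, 40.4 and 39.8 CPM, and with A1 + OVA 36.9, 37.9, 37.6 and 35.9 CPM. All 8 treated samples lay far below the lowest control sample, and A1 replicate 1 was the highest of the treated samples. Cebpa fell by 1.01 on the log2 scale with A1 (SE 0.06, edgeR adjusted p = 2.77e-12), a 2.01-fold decrease, and by 1.18 with A1 + OVA (SE 0.06, edgeR adjusted p = 2.43e-13), a 2.26-fold decrease. The difference between A1 + OVA and A1 was -0.17 (-0.30 to -0.04, edgeR adjusted p = 0.0818). It passed the threshold only when A1 replicate 2 was left out (-0.22, edgeR adjusted p = 0.0356).

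Cebpb (ENSMUSG00000056501, chr2:167688915-167690418, plus strand) and Cebpd (ENSMUSG00000071637, chr16:15887286-15891031, plus strand) encode the early C/EBP factors of the cascade. Cebpb measured 28.5, 19.8, 22.5 and 25.6 CPM in control, 28.6, 24.4, 23.5 and 20.5 CPM with A1 and 28.6, 25.6, 24.1 and 25.1 CPM with A1 + OVA. Its groups overlapped throughout, and the log2 fold changes were 0.012 with A1 (-0.20 to 0.22, edgeR adjusted p = 0.926) and 0.10 with A1 + OVA (-0.10 to 0.31, edgeR adjusted p = 0.387). Cebpd, the least expressed of the 9 genes per kilobase in control MSCs, measured 8.23, 5.44, 5.75 and 7.46 CPM in control, 6.51, 5.80, 6.95 and 7.04 CPM with A1 and 7.76, 7.72, 8.71 and 7.21 CPM with A1 + OVA. The control samples of Cebpd spread over the whole range of the A1 group. Its log2 fold changes were -0.03 with A1 (-0.29 to 0.24, edgeR adjusted p = 0.862) and 0.23 with A1 + OVA (-0.03 to 0.48, edgeR adjusted p = 0.116), and the latter reached 0.34 (edgeR adjusted p = 0.0206) without control replicate 1. Cebpd rested on 76 to 133 counts in a sample. Tmem189 and Spidr lie across Cebpb and Cebpd on the other strand, and the study's methods state that reads were counted by strand.

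Since Cebpa fell and Cebpb did not pass the test, the ratio of their levels per kilobase was computed within each sample, a measure chosen after the values were seen. Control MSCs had 2.03 ± 0.283 times as much Cebpa as Cebpb (SD, n = 4), A1-treated MSCs 0.991 ± 0.0936 times and A1 + OVA-treated MSCs 0.824 ± 0.0654 times. The lowest control ratio was 1.71 and the highest treated ratio 1.11, so that control did not overlap with either treatment. Cebpb to Cebpd, by contrast, stood at 8.99 ± 0.543, 9.27 ± 1.74 and 8.25 ± 0.987, with overlap between all groups.

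**Figure D3:**
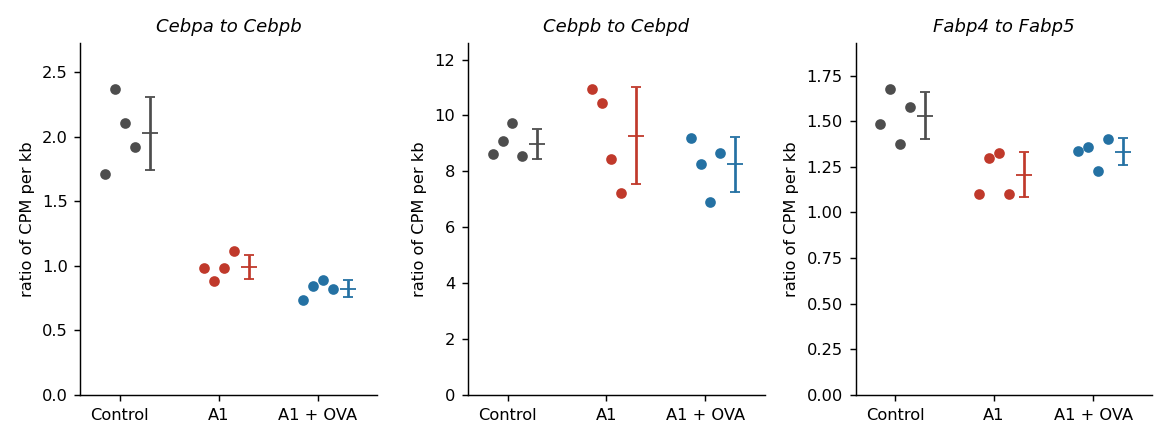
Ratios of expression per kb within a sample for Cebpa to Cebpb, Cebpb to Cebpd and Fabp4 to Fabp5, on axes from 0. Points are samples, and the bars give the mean and SD of 4. The ratio of Cebpa to Cebpb went from 2.03 in control to 0.991 and 0.824 in the treated groups without overlap with control, while the ratios of Cebpb to Cebpd overlap.

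Zfp423 (ENSMUSG00000045333, chr8:87661810-87959595, minus strand) encodes a zinc finger protein of preadipocytes that amplifies BMP signals. The control samples measured 14.2, 12.6, 14.4 and 13.5 CPM. With A1 they measured 4.19, 4.58, 4.50 and 3.99 CPM, and with A1 + OVA 4.86, 5.57, 4.62 and 4.13 CPM. The treated samples, with 55 to 88 counts each against 214 to 233 in control, lay below every control sample and overlapped with each other. Zfp423 fell by 1.67 on the log2 scale with A1 (SE 0.10, edgeR adjusted p = 4.20e-12), a 3.17-fold decrease, and by 1.51 with A1 + OVA (SE 0.10, edgeR adjusted p = 1.07e-11), a 2.86-fold decrease. Its log2 fold change with A1 was the 95th lowest of the 11314 tested genes. The difference between the treatments was 0.15 (-0.10 to 0.40, edgeR adjusted p = 0.455).

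Promoter sequences of RefSeq on the build GRCm38.p6 were used for 5 of the 9 genes. The 250 bases before the start are shown for Cebpa and for the upstream start of Zfp423, the regulators that fell, for Cebpb, and for the downstream start of Pparg, from which the fat-selective isoform PPARγ2 is made. Capitals mark matches on either strand to TTGCNNAA, a pair of C/EBP half-sites, and to the letters CCAAT of the box of that name. They also mark TATAAA, the TATA box at which transcription is often set. The GC box was searched as GGGCGG and the E-box, a site of MYC and related factors, as CACGTG. The repeat bound by PPARγ with RXR was searched as AGGTCANAGGTCA.
Cebpa, chr7:35119043-35119292, plus strand: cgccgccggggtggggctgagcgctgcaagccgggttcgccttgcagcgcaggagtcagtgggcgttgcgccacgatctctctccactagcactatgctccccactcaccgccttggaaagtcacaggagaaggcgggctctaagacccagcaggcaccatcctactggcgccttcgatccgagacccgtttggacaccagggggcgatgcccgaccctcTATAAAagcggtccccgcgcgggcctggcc
Zfp423, chr8:87959596-87959845, minus strand: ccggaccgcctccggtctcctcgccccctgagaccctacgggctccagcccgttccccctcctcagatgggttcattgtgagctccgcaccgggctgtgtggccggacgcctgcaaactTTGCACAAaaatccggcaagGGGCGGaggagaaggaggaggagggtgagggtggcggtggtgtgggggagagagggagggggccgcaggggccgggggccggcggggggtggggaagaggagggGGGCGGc
Cebpb, chr2:167688665-167688914, plus strand: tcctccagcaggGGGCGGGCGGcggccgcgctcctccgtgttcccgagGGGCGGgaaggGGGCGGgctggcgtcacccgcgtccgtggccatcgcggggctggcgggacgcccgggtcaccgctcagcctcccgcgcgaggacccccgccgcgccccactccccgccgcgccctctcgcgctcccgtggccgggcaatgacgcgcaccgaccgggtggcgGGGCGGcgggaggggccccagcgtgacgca
Pparg, chr6:115421816-115422065, plus strand: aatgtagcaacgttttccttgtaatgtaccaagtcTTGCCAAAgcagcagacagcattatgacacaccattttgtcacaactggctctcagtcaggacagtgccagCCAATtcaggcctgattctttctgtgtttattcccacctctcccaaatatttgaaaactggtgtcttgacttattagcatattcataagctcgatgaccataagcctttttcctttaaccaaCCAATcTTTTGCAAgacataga
The Cebpa window held a TATA box that begins 30 bases before the start, as do 12.4% of 32851 promoters anywhere in the same length, and none of the other letters searched. The Zfp423 window held TTGCACAA 131 bases before the start and 2 GC boxes. The Pparg window held TTGCCAAA and TTTTGCAA, 215 and 16 bases before the start, beside 2 CCAAT boxes, and its GC content of 40.8% was below the 81.6% of the Cebpb window with its 5 GC boxes, of which the first 2 share bases. TTGCNNAA occurred in 9.56% of all promoters, CCAAT in 33.8%, GGGCGG in 32.7%, CACGTG in 6.02% and AGGTCANAGGTCA in 0.0335%. A window without a match says only that these letters are not in it.

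Lpl (ENSMUSG00000015568, chr8:68880491-68907448, plus strand) encodes lipoprotein lipase, the secreted enzyme that frees fatty acids from triglyceride-rich lipoproteins. It measured 1728, 1970, 1873 and 1789 CPM in control, 572, 575, 588 and 603 CPM with A1 and 688, 695, 650 and 721 CPM with A1 + OVA. The 3 groups did not overlap, with control highest and A1 lowest. Lpl fell by 1.65 on the log2 scale with A1 (SE 0.04, edgeR adjusted p = 5.18e-18), a 3.15-fold decrease, and its log2 fold change was the 100th lowest of the 11314 tested genes. It fell by 1.42 with A1 + OVA (SE 0.04, edgeR adjusted p = 6.93e-17), a 2.67-fold decrease. Between the treatments Lpl was higher by 0.24 with A1 + OVA (SE 0.04, edgeR adjusted p = 0.00093), a 1.18-fold difference.

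Fabp4 (ENSMUSG00000062515, chr3:10204088-10208576, minus strand) and Fabp5 (ENSMUSG00000027533, chr3:10012548-10016607, plus strand) encode cytosolic carriers of fatty acids, of which Fabp4 is the main one of adipocytes. Fabp4 measured 65.5, 66.7, 59.3 and 61.3 CPM in control, 60.7, 64.2, 69.5 and 61.7 CPM with A1 and 76.5, 73.1, 64.6 and 70.9 CPM with A1 + OVA. The groups overlapped, and its log2 fold change was 0.02 with A1 (-0.10 to 0.14, edgeR adjusted p = 0.80). With A1 + OVA it rose by 0.17 (SE 0.06, edgeR adjusted p = 0.011), with replicate 3 of that group inside the control range. The difference between the treatments, 0.16 (edgeR adjusted p = 0.0746), passed the threshold without A1 replicate 3 (0.19, edgeR adjusted p = 0.0395) or without A1 + OVA replicate 3 (0.20, edgeR adjusted p = 0.0259).

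Fabp5 measured 48.6, 43.8, 47.5 and 42.8 CPM in control, 60.9, 54.6, 57.6 and 61.7 CPM with A1 and 63.1, 59.3, 57.9 and 55.6 CPM with A1 + OVA. Every treated sample was above every control sample, and the treated groups overlapped. The increase was 0.36 on the log2 scale with A1 (SE 0.06, edgeR adjusted p = 7.23e-06) and 0.37 with A1 + OVA (SE 0.05, edgeR adjusted p = 6.03e-06), both 1.29-fold. The difference between the treatments was 0.0049 (-0.11 to 0.12, edgeR adjusted p = 0.97). Fabp5 has a processed pseudogene in the annotation, Fabp5l2, which was counted at 0 in every sample, and how reads that match both were counted is not given in the sources used here. Within a sample the ratio of Fabp4 to Fabp5 per kilobase was 1.53 ± 0.129 in control, 1.21 ± 0.123 with A1 and 1.33 ± 0.0739 with A1 + OVA (SD, n = 4), without overlap between control and A1. Which of the 2 genes is higher depends on the gene length used. With all annotated exons joined, the means with A1 were 14.3 CPM per kb for Fabp4 and 16.5 CPM per kb for Fabp5.

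Plin2 (ENSMUSG00000028494, chr4:86648386-86670060, minus strand) encodes perilipin 2, the coat protein of lipid droplets in cells other than mature adipocytes. The control samples measured 172, 162, 158 and 160 CPM, the A1 samples 169, 161, 163 and 164 CPM and the A1 + OVA samples 175, 175, 169 and 174 CPM. A1 samples fell inside the control range, with a log2 fold change of 0.01 (-0.06 to 0.09, edgeR adjusted p = 0.769). With A1 + OVA it was 0.09 (0.02 to 0.16, edgeR adjusted p = 0.0372), a 1.06-fold difference. This call was lost under 6 of the 8 other analyses, with adjusted p-values from 0.0583 to 0.117, of which DESeq2 gave 0.0666 and edgeR the others. It was also lost when any of 9 of the 12 samples was left out, namely control replicates 2, 3 or 4, A1 replicates 1, 3 or 4, or A1 + OVA replicates 1, 2 or 4, with edgeR adjusted p-values between 0.0585 and 0.113.

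The genes around the 9 were grouped in 10 lists of related function, which hold 126 other genes, 89 of them tested, with some genes in more than 1 list. The lists were chosen with earlier results of these data known, so that their shares and medians are a description and no independent test. Of the 89, 64 had an adjusted p under 0.05 with A1, 25 higher and 39 lower, beside 62.7% of all tested genes. With A1 + OVA it was 65, 23 higher and 42 lower, beside 57.6%, and between A1 + OVA and A1 it was 15, beside 12.9%.

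**Figure D4:**
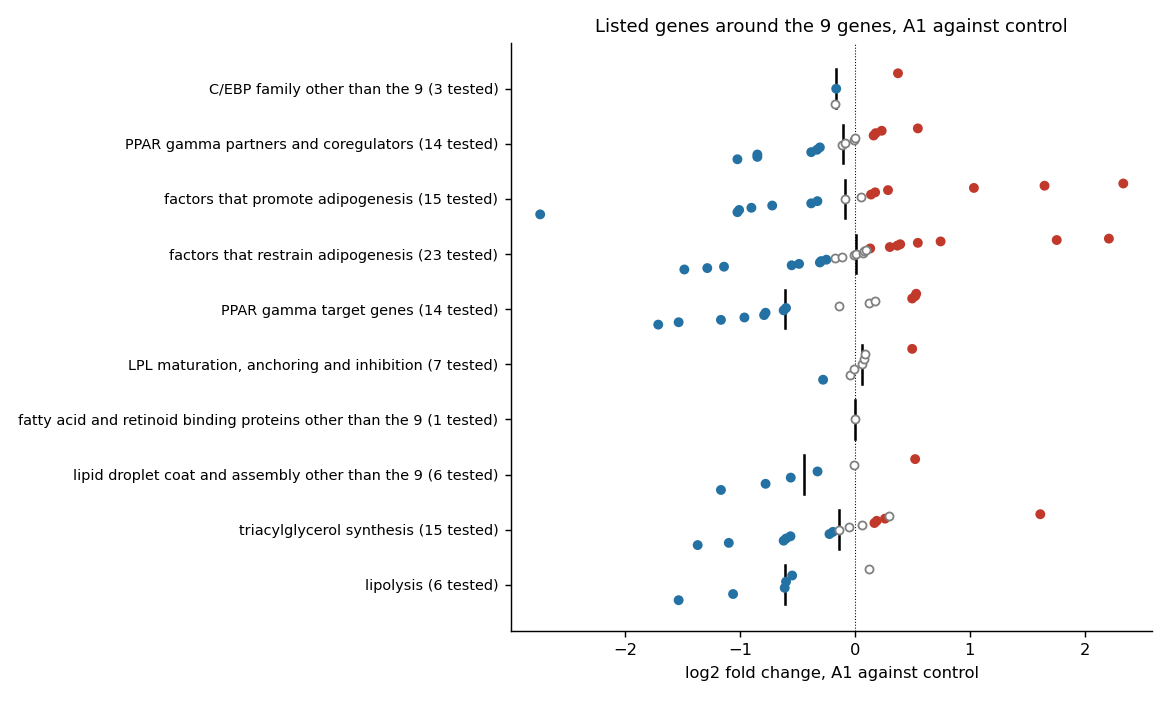
Log2 fold change with A1 against control of every tested gene of the 10 lists, 1 line per list, with the median as a vertical bar. Red and blue points are higher and lower with an adjusted p under 0.05, and open points did not pass. The lists of PPARγ targets and of lipolysis have medians of -0.61 and -0.60, while the lists of factors that promote or restrain adipogenesis spread to both sides of 0.

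The list of other C/EBP genes held Cebpz by its name only, since it encodes a factor of ribosome biogenesis. Cebpz was higher with A1 (0.38, SE 0.04, edgeR adjusted p = 6.21e-08). Cebpg, a partner of other bZIP factors, was lower (-0.16, SE 0.05, edgeR adjusted p = 0.00719). Ddit3, the stress-induced partner that blocks C/EBP binding, had a log2 fold change of -0.17 (edgeR adjusted p = 0.0638). It passed the threshold under 3 of the 8 other analyses, with edgeR adjusted p-values from 0.0347 to 0.0448. It also passed without control replicate 1, A1 replicate 2 or A1 + OVA replicate 3, with edgeR adjusted p-values from 0.0269 to 0.049. Cebpe was at 0 counts in every sample. Of 14 tested partners and coregulators of PPARγ, 4 rose with A1, beside 31.7% of all tested genes, and 6 fell, beside 31.1%. Their median was -0.10. The heterodimer partner Rxrb (0.23) and the coactivator Ncoa3 (0.18) were higher. Rxra, a heterodimer partner with a higher control mean (114 CPM) than Rxrb (23.3 CPM), was lower (-0.38, SE 0.05, edgeR adjusted p = 1.77e-06). Rxrg was at 0 counts. Nr1h3, which encodes the oxysterol receptor LXRα, was lower (-1.02), as were the coactivator Ncoa1 (-0.85) and the coregulator Nrip1 (-0.85). With A1 + OVA, 5 rose and 6 fell, beside 29.7% and 27.9% of all tested genes. Of the 5, Rxrb (0.15, edgeR adjusted p = 0.0425) lost its call under 6 of the 8 other analyses. It also lost it when any of 9 of the 12 samples was left out.

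Factors known to promote adipogenesis moved both ways with A1. Of 15 tested genes, 6 were higher, beside 31.7% of all tested genes, and 7 lower, beside 31.1%, with a median log2 fold change of -0.09. Egr2 (2.33), Klf5 (1.65) and Prdm16 (1.04) led the increases, and Bmp4 (-2.74), Nr1h3 (-1.02) and Ebf1 (-1.01) the decreases. In the control samples Egr2 rested on 16 to 29 counts and Klf5 on 30 to 55. Bmp4 encodes a ligand that commits mesenchymal precursors to the fat lineage, and Ebf1 a factor upstream of Pparg and Cebpa. Of these, Egr2 was lower with A1 + OVA than with A1 (-1.06, SE 0.14, edgeR adjusted p = 2.53e-05), as was Ebf1 (-0.16, SE 0.05, edgeR adjusted p = 0.0266), although the call for Ebf1 was lost without replicate 2 or 3 of either group, with edgeR adjusted p-values from 0.0501 to 0.103. Factors known to restrain adipogenesis were also split, 8 of 23 higher and 8 lower, beside the same 31.7% and 31.1%, with a median of 0.0069. Hes1 (2.21), Foxc2 (1.76) and Tgfb1 (0.75) rose, and Zfp521 (-1.48), which opposes Ebf1 and Zfp423, Gata3 (-1.28) and Irf4 (-1.14) fell, with Gata3 and Irf4 at means under 2 CPM in every group.

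Among the listed targets of PPARγ, 8 of 14 tested genes fell with A1, beside 31.1% of all tested genes, and 3 rose, beside 31.7%. They had a median of -0.61 beside -0.0017 over all tested genes. With A1 + OVA 8 fell, beside 27.9%, and 4 rose, beside 29.7%, with a median of -0.50. Of these 8, Cidec (-0.54, edgeR adjusted p = 0.0432) lost its call under 3 of the 7 other analyses that tested it. It also lost it when any of 5 of the 12 samples was left out. Adipoq, which encodes the hormone adiponectin, went from 2.72, 2.31, 2.78 and 1.00 CPM in control to 0.723, 0.763, 0.611 and 0.581 CPM with A1, a log2 fold change of -1.71 (SE 0.33, edgeR adjusted p = 0.000148). Lipe, the hormone-sensitive lipase, was lower by a log2 fold change of -1.53 and Plin4, a droplet coat protein, of -1.16. Pdk4, which restrains glucose oxidation, was higher (0.53), as were Hilpda (0.52) and Angptl4 (0.50). Adipoq, Lipe, Cd36, Cidec and Aqp7, all among the 8 that fell with A1, were at or under 4 CPM in all samples.

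For the handling of the LPL protein, 1 of 7 tested genes rose and 1 fell with A1, beside 31.7% and 31.1% of all tested genes. Angptl4, a secreted inhibitor of LPL, measured 51.2, 44.5, 48.1 and 46.7 CPM in control and 67.9, 69.6, 66.8 and 64.8 CPM with A1 (log2 fold change 0.50, SE 0.05, edgeR adjusted p = 6.54e-09). The A1 + OVA samples measured 64.2, 64.3, 66.3 and 65.4 CPM (0.45, edgeR adjusted p = 3.23e-08). All 8 treated samples were above control for Angptl4, opposite to Lpl. The protease gene Pcsk6 was lower (-0.28), and Gpihbp1, the anchor of LPL on the capillary wall, was at 0 counts. Of the other fatty acid and retinoid binding proteins, 1 of 11 was tested, Fabp7, with a log2 fold change of 0.0025 that did not pass.

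Of 6 tested genes of the lipid droplet coat other than Plin2, 4 fell and 1 rose with A1, beside 31.1% and 31.7% of all tested genes. Their median was -0.44. Plin4 measured 284, 297, 325 and 317 CPM in control, 132, 147, 123 and 143 CPM with A1 and 177, 193, 222 and 233 CPM with A1 + OVA. The 3 groups did not overlap, and Plin4 was higher with A1 + OVA than with A1 by 0.60 (SE 0.07, edgeR adjusted p = 9.91e-06). Plin3 followed the same order, with means of 109, 74.1 and 90.5 CPM and a difference of 0.29 between the treatments (SE 0.05, edgeR adjusted p = 0.00022). Cidec, which fuses droplets, was lower with A1 (-0.78) but rested on 9 to 31 counts in a sample. Hilpda, a droplet protein that inhibits lipolysis, was higher (0.52).

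In triacylglycerol synthesis, 4 of 15 tested genes rose and 7 fell with A1, beside 31.7% and 31.1% of all tested genes, with a median of -0.13. The phosphatidate phosphatases moved apart, Lpin3 from 9.10, 8.98, 8.35 and 7.46 CPM in control to 27.8, 26.2, 24.1 and 25.6 CPM with A1 (1.61, SE 0.08, edgeR adjusted p = 7.15e-14) and Lpin1 from 39.1, 40.7, 49.1 and 47.2 CPM to 16.6, 18.6, 14.4 and 18.6 CPM (-1.37, SE 0.09, edgeR adjusted p = 1.32e-11). The acyl-CoA synthetases were also split, with Acsl3 (-1.10) and Acsl1 (-0.62) lower and Acsl5 (0.26) higher, while the acyltransferase Gpat4 was higher (0.19). In lipolysis, 5 of 6 tested genes fell, beside 31.1% of all tested genes, and none rose, with a median of -0.60. Beside Lipe these were the triglyceride lipase Pnpla2 and its coactivator Abhd5, the carboxylesterase Ces1d (-1.06) and the lysosomal acid lipase Lipa (-0.61). G0s2, the remaining tested gene, did not pass with A1 (0.12, edgeR adjusted p = 0.584). With A1 + OVA 5 of the 6 fell, beside 27.9% of all tested genes, and none rose, with a median of -0.44. By a log2 fold change of at least 0.5 in size 2 of the 6 were lower, beside 8.79% of all tested genes. Lipa was higher with A1 + OVA than with A1 (0.21, SE 0.04, edgeR adjusted p = 0.00293).

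For each of the 9 genes, the tested genes with the most similar log2 CPM over the 12 samples were listed as a description. These points share 3 treatment groups, so that Pearson's r is given over all samples and after the group means were taken out. Lpl was most like Snai2 (r = 0.998, and 0.765 within groups), Mme (0.998 and 0.764) and Scd1 (0.997 and 0.872). Cebpa was most like Dkk3 (0.994 and 0.777), Bicc1 (0.991 and 0.566) and Gas1 (0.991 and 0.582), and Zfp423 like Npr3 (0.994 and 0.657), Igf1 (0.993 and 0.583) and Bmp4 (0.992 and 0.459). Fabp5 was most like Xrcc2 (0.979 and 0.910), Fam72a and Rhoc. Over all samples r was lower for the genes with small or no shifts between groups. Their first gene was Ctnnbip1 for Pparg (0.886 and 0.822), Fam110a for Cebpb (0.939 and 0.945) and Dctn3 for Cebpd (0.899 and 0.848). It was Snrnp27 for Fabp4 (0.928 and 0.866) and Gorasp1 for Plin2 (0.914 and 0.826). Within groups r was 0.822 to 0.945 for these, beside 0.657 to 0.910 for the first genes of Lpl, Cebpa, Zfp423 and Fabp5. Each partner was picked by its r over all samples, which includes the shift between groups where a gene has one. The ranges within groups can therefore differ through the picking alone, and no conclusion is drawn from them. The next in order were Osbpl2 and Patz1, Irf2bp1 and Mcrip1, Mgrn1 and Ftl1, Ctsl and Rcn2, and Lgals3 and 4933434E20Rik.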

How the data were processed

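RNA-seq of 12 samples of mouse MSCs was analysed, in 3 groups of 4 taken from the sample titles. Per the labels and the study's methods, the authors prepared stranded poly(A) libraries and aligned the reads to GRCm38, and the submitters' processing notes name bcl2fastq 2.20, STAR 2.7 and featureCounts 2.0. The deposited values are raw counts per Ensembl gene, without normalization, so that any scaling was added here. Reads were counted by strand, and the setting for multi-mapped reads is not given in the sources used here.

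Symbols, biotypes and coordinates came from GENCODE M21 on GRCm38, which held 99.53% of the identifiers and 21974 protein-coding genes of the table. Low counts were removed with filterByExpr, libraries were scaled by TMM, and the groups were compared by the quasi-likelihood test of edgeR (version 4.0.16, under R 4.3.3), all 12 samples in 1 fit without other covariates. P-values were adjusted by Benjamini-Hochberg over the 11314 tested genes, and a gene was called at an adjusted p under 0.05. CPM are counts scaled to a TMM-normalized library of 1e+06 counts, and log2 CPM for correlations used a prior count of 2. Intervals cover the spread between samples, and 4 samples per group limit their precision. The fits were tested on simulated data.

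The 9 genes and the lists were chosen with earlier results of these data known. Named are the 9 genes, of each list the called genes with the largest log2 fold change with A1 (up to 3 higher and 3 lower), the listed C/EBP genes and the 3 genes most correlated with each of the 9. Of the genes this rule selects, 1 is not reported here. Genes named beside these as untested or as further members of a list were added after their values were seen. Within groups, the variance between a pair of samples was 1.91 to 6.80 times that of counting, so that no sample was a copy. Alternatives were RLE and upper-quartile scaling, DESeq2 1.42.0, other filters on low counts, all genes of the table, only the groups compared, the replicate number as a block and each sample left out.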

Additional observations from a re-analysis of the deposited data

Results flagged for a closer look

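Among 135 combinations of a gene and a group, 5 held a sample that stood apart from the other 3 of its group by Dixon's ratio, where chance alone flags about 1 in 20. None of them was among the 27 combinations of the 9 genes. Egr2 measured 5.95 CPM in A1 replicate 4, below 7.79 to 7.95 CPM in the others, and Lipe 0.726 CPM in the same sample, below 1.22 to 1.30 CPM. Foxc2 measured 12.1 CPM in control replicate 2 (others 14.1 to 14.2), Ddit3 24.1 CPM in control replicate 1 (the others at most 27.6) and Zfp521 7.20 CPM in A1 + OVA replicate 3 (others 8.70 to 8.94).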

How the results depend on the processing

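The 4 calls among the 9 genes with A1 held under all 8 other analyses and without each of the 12 samples. With A1 + OVA the count of 6 lay between 5 and 6 under the other analyses and between 5 and 8 without a sample, through Plin2 and Pparg as given above and Cebpd. Between A1 + OVA and A1 the count of 1 ranged from 1 to 2 when a sample was left out, with Cebpa added without A1 replicate 2 and Fabp4 without A1 replicate 3 or A1 + OVA replicate 3. The listed genes called numbered 58 to 68, 58 to 65 and 15 to 17 under the other analyses, and 62 to 68, 60 to 65 and 10 to 17 without a sample. A fit blocked on the replicate number gave 4, 6 and 1 calls among the 9 genes and 65, 64 and 16 among the listed genes. Samples with the same number did not deviate together (mean correlation 0.021 over 12 pairs, from -0.132 to 0.156), and 4 of the 12 samples correlated best with their own number. Signs turned only for differences that did not pass the test. Under upper-quartile scaling, which moved the median by -0.03, the log2 fold changes with A1 became -0.0174 for Cebpb, -0.0114 for Fabp4 and -0.0162 for Plin2. Without a sample, the log2 fold change with A1 ranged from -0.0528 to 0.0185 for Pparg, from -0.0847 to 0.103 for Cebpb, from -0.1195 to 0.0846 for Cebpd, from -0.0299 to 0.0454 for Fabp4 and from -0.006 to 0.0394 for Plin2. Between A1 + OVA and A1 it ranged from -0.0282 to 0.0322 for Fabp5, from -0.069 to 0.0067 for Cebpg, from -0.0359 to 0.1002 for Klf5, from -0.1538 to 0.1739 for Gata3, from -0.1232 to 0.3702 for Irf4, from -0.1604 to 0.3435 for Adipoq and from -0.0674 to 0.0203 for Pcsk6. Why these values turned was not tested. In upper-quartile scaling 45.6% of the genes called with A1 were higher, beside 50.5% in the analysis reported. Depth limits the values of genes with few counts, such as Irf4 with 4 to 23 and Adipoq with 3 to 45 in a sample.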
